A study of Homo sapiens with 36 samples.

Results

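The response of H3K27ac to 14 days of trametinib was compared with the response to 24 hours in the POS subpopulation of SUM-229PE, an established line of triple-negative breast cancer. The comparison covered the 30743 regions that occur in both POS tables, paired 1 to 1 by a reciprocal overlap of at least 50%. They are 61% of the 50424 regions of the 24 hour table and 69.3% of the 44343 regions of the day 14 table, and they drew on 10 of the 36 samples of the series. Every matched region passed the filter on low counts and was tested. For each, the quantity of interest was the log2 response at day 14 (D14 over D0) minus the log2 response at 24 hours (trametinib over DMSO), called the difference of responses below. POS cells carry the surface proteins EpCAM and CD49f and were isolated by cell sorting from a low-passage culture. NEG cells of the same line carry neither protein.

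The 4 POS groups were acute DMSO, the solvent control (3 libraries), acute trametinib at 30 nM for 24 hours (3 libraries), chronic day 0 (2 libraries) and chronic day 14 at 10 nM trametinib (2 libraries). Dose and time both differ between the arms, and no group held for 14 days without drug was analysed here, so dose, length of exposure and time in culture cannot be told apart in the difference of responses. All groups come from 1 cell line. The labels do not state that replicates were separate cultures, and p-values therefore cover only the spread between libraries, which may be technical. Libraries held 2520795 to 6987038 counts in the matched regions, and the median region held 52 to 132. Replicates of a group correlated across the 30743 regions with r of 0.97 to 0.986 and differed by more than sampling noise in every pair. Coordinates are hg19 as the 24 hour table gives them. No hg19 annotation was used here, so regions are named by position, were not assigned to genes, and the label POS was not checked against marker genes.

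Trametinib blocks MEK, the kinase that activates ERK. Active ERK phosphorylates transcription factors, among them members of the ETS and AP-1 families, and AP-1 dimers of JUN and FOS proteins bind many enhancers in epithelial cancer cells. Acetylation of lysine 27 of histone H3 is placed by the acetyltransferases p300 and CBP on nucleosomes beside active promoters and enhancers, and is removed by deacetylases when an element is switched off. A change of H3K27ac at a region is therefore read as a change in the activity of a regulatory element, not as a change in the expression of a given gene.

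H3K27ac moved further from its untreated level at day 14 than at 24 hours, at more regions, in both directions. The median absolute log2 response was 0.49 at 24 hours and 0.95 at day 14, and the SD over regions was 0.85 and 1.45. At 24 hours, 19710 of 30743 regions (64.1%) were called, of which 2793 rose (9.08% of all tested) and 3681 fell (12%) at least 2-fold. At day 14, 23308 regions (75.8%) were called, of which 6537 rose (21.3%) and 8176 fell (26.6%) at least 2-fold. Changes of 8-fold or more were rarer at 24 hours, with 2 gains and 120 losses, than at day 14, with 541 gains and 720 losses. The difference of responses itself was called in 16795 regions (54.6%). The day 14 response was the higher one in 8042 of them (26.2% of all tested) and the lower one in 8753 (28.5%), and 9736 regions (31.7%) differed at least 2-fold. Calls are by edgeR's quasi-likelihood test at a Benjamini-Hochberg adjusted p of 0.05, from 1 fit to all 10 libraries. The split between higher and lower depends on the scaling of the libraries. With total counts in place of TMM factors the median difference shifted from -0.03 to -0.16, and 39.7% in place of 47.9% of the calls were higher.

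**Figure D1:**
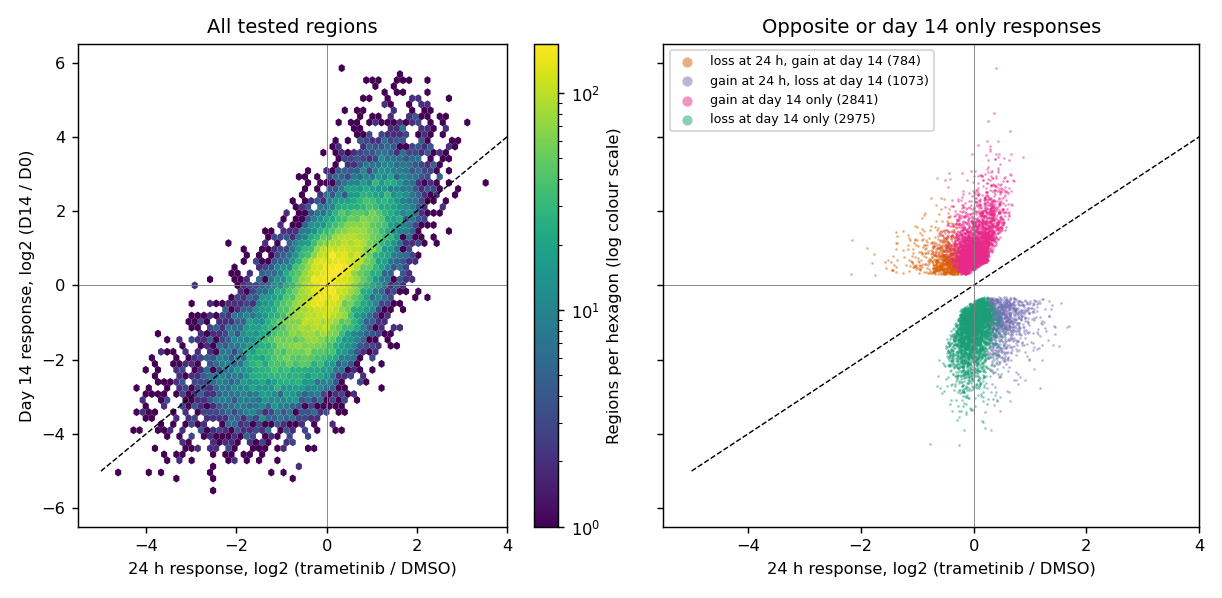
Log2 response of H3K27ac at 24 hours (x axis) and at day 14 (y axis) in POS; the dashed line marks equal responses. Left, hexagons coloured by the number of the 30743 tested regions. Right, each point is a region called in opposite directions (784 losses followed by gains, 1073 gains followed by losses) or called at day 14 alone with a called difference (2841 gains, 2975 losses); the cloud at left is steeper than the dashed line.

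The difference of responses came mostly from the treated libraries and not from the untreated ones. The untreated groups, D0 and DMSO, differed in 5338 regions (17.4%), and by 2-fold or more in only 431 (1.4%). The treated groups, D14 and 24 hour trametinib, differed in 22037 regions (71.7%), and by 2-fold or more in 11042 (35.9%). Among the 16795 regions with a called difference of responses, the gap between the treated groups was larger than the gap between the untreated groups in 15605 (92.9%). D0 and DMSO were called different in 3296 of these 16795 regions (19.6%), close to the 17.4% over all tested regions. The count for D0 over DMSO rests on single libraries. It was 1818 without D0 replicate 1 and 3439 without DMSO replicate 3. Its split also moves, with 47.5% of the calls higher in D0 in the main fit, 61.9% with the scaling factors of each full table, 59.6% at 80% overlap and 58.7% without trametinib replicate 3.

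Most regions that responded at both times kept their direction. Of 15993 regions called at both times, 14136 (88.4%) moved the same way. In 6510 of these the response was larger at day 14 (3437 deeper losses and 3073 larger gains), and in 575 it was smaller at day 14 (405 losses and 170 gains). In the other 7051 the 2 responses were not distinguished. The group with smaller responses at day 14 is the least stable in size, with 341 regions without D0 replicate 1, 341 without D14 replicate 1 and 364 without D14 replicate 2. The 3437 deeper losses went from a median of 37.2 CPM (counts scaled by the total in the matched regions and by TMM factors) in DMSO to 20.1 at 24 hours, and from 34.3 at D0 to 7.21 at D14. The 3073 larger gains started weaker, at 12.3 CPM in DMSO and 12.2 at D0, and reached 22.8 at 24 hours and 53.1 at D14.

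**Figure D2:**
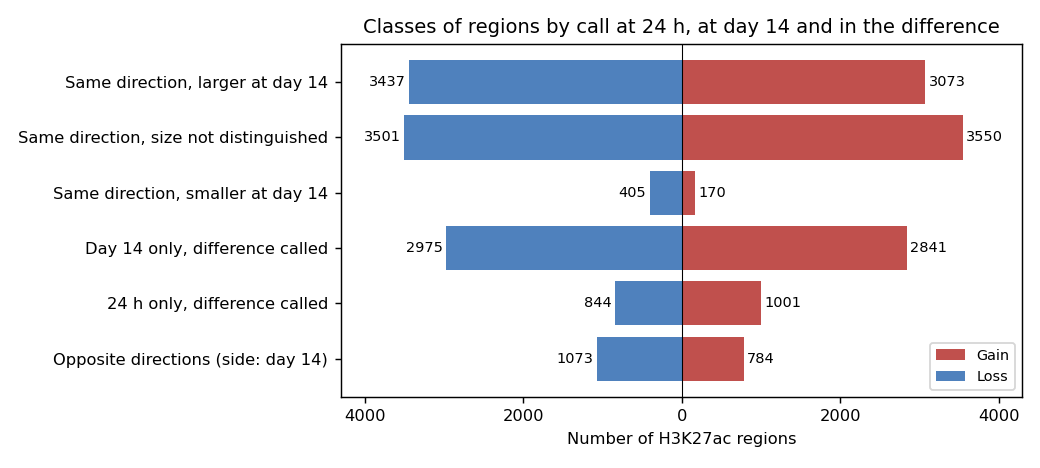
Number of H3K27ac regions in each class of response, with gains to the right and losses to the left of 0. Classes combine the calls at 24 hours, at day 14 and in the difference; regions with opposite directions are placed by their direction at day 14, and larger responses at day 14 (3437 losses, 3073 gains) outnumber smaller ones (405 losses, 170 gains).

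A strong response at 24 hours was nearly always followed by a response of the same sign. Of the 707 regions with a 24 hour log2 response of -2 or lower, 695 (98.3%) were called losses at day 14. The median of the 707 was -2.40 at 24 hours and -2.52 at day 14. The difference of responses was called higher in 175 of them (24.8%) and lower in 144 (20.4%), against 26.2% and 28.5% over all tested regions. Of the 178 regions that rose by 2 or more at 24 hours, 177 (99.4%) were called gains at day 14, and their median went from 2.20 to 3.11. Between 24 hour log2 responses of -0.5 and 0, the day 14 response spread widely, with 1750 of 7500 regions called gains (23.3%) and 3329 called losses (44.4%). These values are a description, since the 24 hour response enters the difference of responses as well as the bins.

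The largest differences with a higher response at day 14 were, among the named regions, at positions almost unmarked in every other group. Named regions had to reach the median level over all groups, and these could do so only through D14, so the choice shapes this pattern. At chr22:31588725-31589726, H3K27ac was 3.31, 3.95 and 4.14 CPM in DMSO, 4.86, 4.30 and 5.41 in 24 hour trametinib, 1.35 and 2.64 at D0, and 105 and 109 at D14. The D14 libraries stand far above all 8 others, while the 24 hour trametinib libraries lie just above DMSO. Its log2 response was 0.40 ± 0.25 (SE) at 24 hours and 5.85 ± 0.22 at day 14, a difference of 5.45 ± 0.41 (95% interval 4.64 to 6.27; edgeR adjusted p = 1e-16). A like pattern was measured at chr6:42523392-42524393, where D14 held 68.1 and 72.4 CPM and the other 8 libraries 2.47 to 7.92. There the groups of the 24 hour arm overlapped, and the difference was 4.16 ± 0.39. The windows of both arms shared 751 bases at chr22:31588725-31589726 and 697 at chr6:42523392-42524393, below the median of 960 over all matched regions. The effect of this shift on the 24 hour response was not tested.

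Other regions of this kind were already called higher at 24 hours in the fit of 10 libraries. At chr1:31592750-31593751 the levels were 2.52, 4.79 and 3.73 CPM in DMSO and 7.47, 7.24 and 6.55 in 24 hour trametinib, against 1.57 and 3.77 at D0 and 105 and 111 at D14. Neither arm's groups overlapped, and the log2 response grew from 1.01 ± 0.24 to 5.47 ± 0.22. At chr12:91782013-91783014 it grew from 1.24 ± 0.24 to 5.23 ± 0.26, and at chr6:121853968-121854969 from 0.93 ± 0.29 to 5.55 ± 0.28. The authors' separate 24 hour test (DESeq2) gave an adjusted p of 0.0042 at chr12:91782013-91783014 and 0.05 at chr1:31592750-31593751. It gave 0.085 at chr1:45868865-45869866 and 0.1 at chr6:121853968-121854969. The highest level at D14 among the 6 regions with the largest positive differences was at chr1:45868865-45869866, with 137 and 146 CPM, although 1 DMSO library (13.2 CPM) exceeded all of the 24 hour trametinib libraries (10.8, 12.7 and 12.1) there. None of these 6 regions held a JUNB site in untreated cells, against 86.5% with a site over all tested regions and 50.2% among the 1228 larger gains that were weakest before treatment.

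The largest differences with a lower response at day 14 were, among the named regions, at positions marked in all other groups that D14 cells had almost lost. With D14 so low, these could reach the median level over all groups only through other groups, so the choice shapes this pattern too. At chr10:113986476-113987477, H3K27ac was 79.2, 59.2 and 74.2 CPM in DMSO, 44.8, 39.1 and 46.0 in 24 hour trametinib, 87.9 and 73.5 at D0, and 2.04 and 2.16 at D14. The 24 hour libraries had lost part of the mark and the D14 libraries nearly all of it. Its log2 response fell from -0.72 ± 0.11 to -5.26 ± 0.25, a difference of -4.54 ± 0.29 (edgeR adjusted p = 9.6e-19). At chr3:130935664-130936665 the level went from 225, 168 and 218 CPM in DMSO to 143, 119 and 145 in 24 hour trametinib, and from 191 and 190 at D0 to 6.64 and 5.94 at D14. This was the most strongly marked of the 6 regions, and its difference was -4.32 ± 0.26. At chr6:85607420-85608421 the log2 responses were -0.58 ± 0.11 and -4.96 ± 0.24.

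At the other 3 of the 6 regions with the largest negative differences, the 24 hour response was above 0. At chr3:44928032-44929033 it rose slightly, by 0.31 ± 0.11 on the log2 scale (edgeR adjusted p = 0.012), and fell by 3.90 ± 0.23 at day 14. At chr2:109029492-109030493 the 24 hour response was 0.20 ± 0.11 (edgeR adjusted p = 0.12), and D14 held 1.02 and 2.70 CPM against 28.5 and 24.5 at D0. At chr5:15021325-15022326 the sign turned. The level was 22.8, 18.9 and 25.3 CPM in DMSO, 51.7, 50.9 and 50.5 in 24 hour trametinib, 21.3 and 21.5 at D0, and 2.81 and 3.51 at D14. So the 24 hour libraries lie above all untreated ones and the D14 libraries below them, with log2 responses of 1.17 ± 0.11 and -2.75 ± 0.27. A JUNB site lay in 5 of these 6 regions, all but the one on chromosome 10, which is near the 86.5% over all tested regions.

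**Figure D3:**
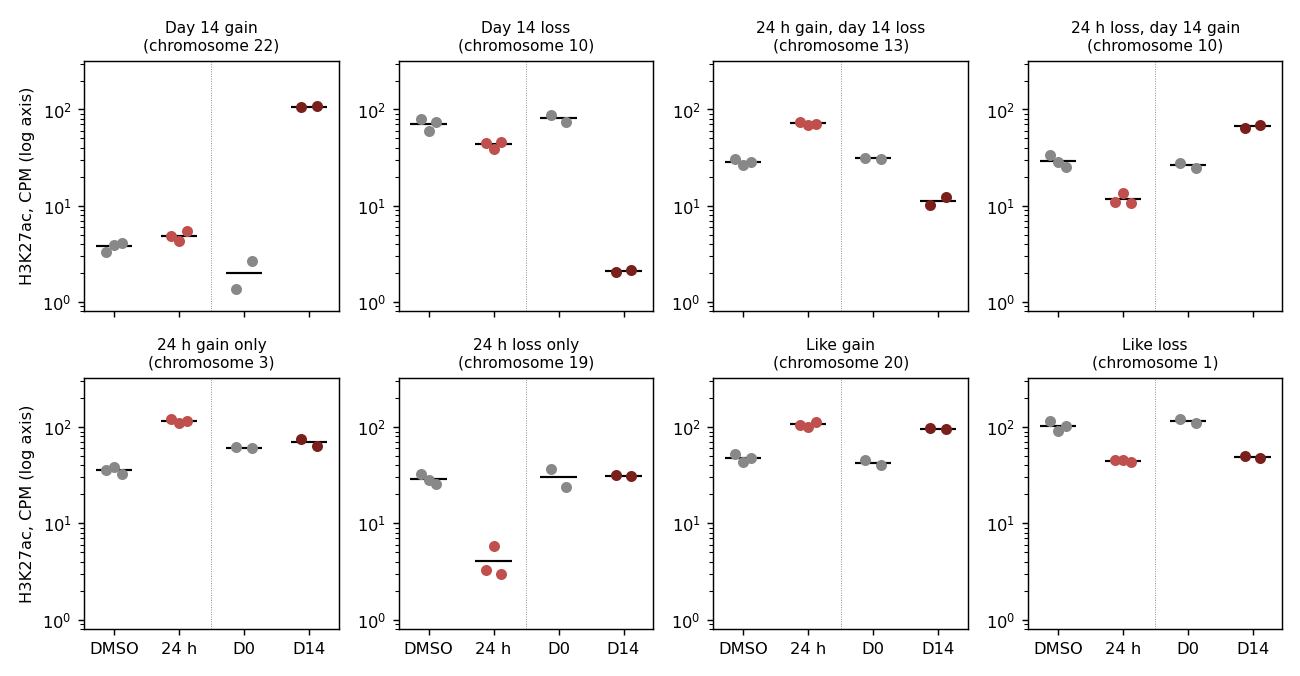
H3K27ac in each library (points; CPM, log axis) at 8 regions, with group means as bars; dotted lines separate the 24 hour arm (DMSO, 24 h trametinib) from the chronic arm (D0, D14). The D14 gain on chromosome 22 reaches 105 and 109 CPM, the D14 loss on chromosome 10 ends at 2.04 and 2.16, and the regions on chromosomes 13 and 10 in the upper row change direction between the arms.

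A called response in opposite directions was found in 1857 regions, 6.04% of those tested. H3K27ac rose at 24 hours and fell by day 14 in 1073 regions, with median log2 responses of 0.49 and -0.90. It fell at 24 hours and rose by day 14 in 784 regions, with medians of -0.48 and 0.67. In the authors' deposited tables, which were tested separately for each arm, 612 matched regions were called in opposite directions (496 gains then losses and 116 losses then gains). All 1857 regions have the same pair of signs in the authors' deposited tables, where 602 of them were called in both arms. The authors' values come from the same libraries and regions, so equal signs are no independent check. The count of losses followed by gains moves to 507 with the scaling factors of each full table, under which the median difference was -0.17.

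At chr13:36738120-36739121, a gain turned into a loss. The level was 30.6, 26.5 and 28.4 CPM in DMSO, 74.1, 69.5 and 71.3 in 24 hour trametinib, 31.2 and 30.9 at D0, and 10.2 and 12.4 at D14. The untreated libraries of both arms lie close together there, and the log2 responses were 1.32 ± 0.11 and -1.46 ± 0.19. A still larger turn was measured at chr9:88150894-88151895, with 104, 95.7 and 98.1 CPM in 24 hour trametinib and 9.19 and 9.73 at D14, and a difference of -3.23 ± 0.22. The turn at chr15:48857998-48858999 was of like size to that on chromosome 13, with responses of 1.21 ± 0.11 and -1.60 ± 0.18. At chr1:216558756-216559757 the responses were 1.44 ± 0.11 and -1.32 ± 0.23, but D0 (19.5 and 20 CPM) already lay below DMSO (32.5, 26.2 and 32.9), by 0.65 ± 0.16 on the log2 scale. The windows of both arms shared only 589 bases there, and the effect of this shift on that gap was not tested.

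The deepest loss at 24 hours among the regions named for a turn to a gain was at chr19:18475662-18476663. Its level was 25.5, 23.7 and 21.8 CPM in DMSO, 4.86, 5.88 and 5.27 in 24 hour trametinib, 28.5 and 26.4 at D0, and 62.8 and 65.1 at D14. The 24 hour libraries are the lowest of the 10 and the D14 libraries the highest, and the log2 responses were -2.16 ± 0.16 and 1.21 ± 0.14. At chr10:11726690-11727691 the mark fell from 33.7, 28.7 and 25.5 CPM to 10.9, 13.6 and 10.8 at 24 hours, and rose from 27.6 and 24.9 to 64.3 and 68.9 at day 14. At chr2:68766-69767 the responses were -1.25 ± 0.13 and 1.46 ± 0.14, and the windows of both arms shared only 585 bases. At chr5:172064103-172065104 the responses were -1.16 ± 0.14 and 1.37 ± 0.17, with D0 again below DMSO, by 0.56 ± 0.17. All 8 regions named for a turn held a JUNB site, where 86.5% of all tested regions did.

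Day 14 alone accounted for 5816 regions with a called difference (18.9% of those tested), 2975 losses and 2841 gains. In the losses the median level was 24.6 CPM in DMSO, 24.8 in 24 hour trametinib, 23.5 at D0 and 9.84 at D14. In the gains it was 16.0, 16.2, 16.4 and 35.9. At chr14:23640729-23641730 the D14 libraries held 103 and 102 CPM, and the other 8 held 6.77 to 9.72. At chr2:38644822-38645823 D14 held 68.1 and 64.0 CPM, and the log2 responses were 0.29 ± 0.23 and 3.68 ± 0.24. Among the losses, chr8:132262158-132263159 went from 57.2 and 51.3 CPM at D0 to 3.32 and 4.05 at D14, while 24 hour trametinib (51.6, 43.0 and 46.4) overlapped DMSO (57.8, 45.1 and 54.1). At chr3:191728911-191729912 the D14 libraries held 9.70 and 10.3 CPM, against 101 and 114 at D0. The fall at chr5:166199201-166200202 was of like depth, from 75.6 and 62.2 CPM to 6.64 and 5.94. The windows of both arms shared only 679 bases at chr14:23640729-23641730, 579 at chr2:38644822-38645823 and 584 at chr8:132262158-132263159. The median over all matched regions was 960. They shared 977 bases at chr3:191728911-191729912 and 908 at chr5:166199201-166200202. The effect of shifted windows on the 24 hour response was not tested at single regions.

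Fewer regions, 1845 (6% of those tested), responded at 24 hours, were not called at day 14 and had a called difference. These were 1001 gains and 844 losses. At chr19:46573293-46574294 the level was 32.9, 28.2 and 25.9 CPM in DMSO, 3.30, 5.88 and 2.99 in 24 hour trametinib, 36.8 and 24.1 at D0, and 31.6 and 31.1 at D14. The D0 and D14 libraries overlap, and all 4 lie far above the 24 hour trametinib libraries. The log2 response was -2.92 ± 0.19 at 24 hours and -0.01 ± 0.17 at day 14. The windows of both arms shared only 602 bases at this region, and the effect of the shift was not tested. At chr20:352558-353559 the responses were -2.64 ± 0.18 and 0.13 ± 0.17, and at chr15:67058196-67059197 they were -2.05 ± 0.14 and -0.27 ± 0.15.

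Over these classes the median 24 hour responses were close in size, 0.70 in the gains and -0.74 in the losses. Among the gains, at chr3:32955663-32956664 the level went from 40.5, 27.9 and 30.9 CPM to 111, 103 and 115 at 24 hours, while D0 (38.3 and 36.2) and D14 (50.5 and 40.8) lay close together, with responses of 1.70 ± 0.12 and 0.29 ± 0.16. At chr6:123489846-123490847 and chr3:171977704-171978705 the 24 hour responses were 1.72 ± 0.12 and 1.70 ± 0.11. In both regions D0 was above DMSO, by 0.62 ± 0.17 and 0.78 ± 0.14 on the log2 scale, so part of their difference lies between the untreated groups. At chr3:171977704-171978705 D14 held 75.5 and 64.0 CPM, which is above DMSO (36.1, 38.9 and 32.3).

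Some strong responses were nearly equal at both times. At chr20:53389471-53390472 the level rose from 52.0, 43.1 and 47.5 CPM to 106, 101 and 113 at 24 hours, and from 45.3 and 40 to 98.3 and 94.6 at day 14. The difference was 0.01 ± 0.18, and its 95% interval of -0.36 to 0.37 leaves room for a change of about that size either way. At chr1:17559652-17560653 the level fell from 117, 91.6 and 103 CPM to 45.8, 45.5 and 43.0 at 24 hours, and from 120 and 110 to 50.3 and 47.8 at day 14, with the same difference in size (-0.01 ± 0.18). Equal responses could still end at different levels. At chr17:76339151-76340152 both responses were losses, of -1.16 ± 0.12 and -1.15 ± 0.14, but D0 (80.3 and 60.7 CPM) lay above DMSO (52.6, 46.5 and 43.5). Gains of equal size at chr7:55614497-55615498 (1.02 ± 0.11 and 1.03 ± 0.14) likewise started from different levels, with 41.0 and 43.0 CPM at D0 and 25.5, 27.6 and 29.4 in DMSO. The remaining regions named for equal responses were chr15:94380064-94381065, a gain of 1.28 ± 0.12 and 1.27 ± 0.15, and chr12:64574632-64575633, a loss of -1.12 ± 0.11 and -1.11 ± 0.15.

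The level before treatment went with the direction of the difference. Regions were divided into 5 equal groups by their mean CPM in the untreated libraries. In the weakest group (1 to 9.5 CPM), 35.7% of 6149 regions had a called higher response at day 14 and 8.33% a lower one. In the strongest group (47.7 to 576 CPM), 23.4% were higher and 39.9% lower. The untreated level is the denominator of both responses, and a region weak without drug is in the tables only where it was called in some library, so this order was not tested. The precision also differed, with a median SE of 0.41 in the weakest group and 0.19 in the strongest. Regions left out by the matching were weaker. Scaled by each table's total, their median was 6.29 CPM in the untreated libraries of each arm, against 15.2 and 15.7 for the matched regions, and 6.11 at 24 hours and 9.51 at day 14 in the treated libraries. The 19681 unmatched regions of the 24 hour table and the 13600 of the day 14 table are not covered.

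JUNB, an AP-1 subunit, had been profiled in untreated POS and NEG cells, in libraries that enter none of the responses. A JUNB site lay inside 86.5% of the tested regions. The share was 95.8% among the 3437 deeper losses and 74.7% among the 3073 larger gains. Much of this contrast lay in weakly marked regions. In the weakest of the 5 groups by untreated level, 50.2% of 1228 larger gains held a site, whereas in the 3 strongest groups the shares were 92.3% to 95% for larger gains and 95.4% to 96.9% for deeper losses. At every level the 2 classes differed in which subpopulation bound more JUNB there. Over all sites, 40343 of 141580 (28.5%) were called higher in POS and 41607 (29.4%) higher in NEG. In a region with several sites the one with the highest level was taken. Regions whose site was called higher in NEG made up 27.4% of the deeper losses, 5.53% of the larger gains and 14.4% of all tested regions. In the 5 groups from weakest to strongest, that share was 36.2%, 34.7%, 30.4%, 28.7% and 22.0% of the deeper losses, and 5.46%, 7.48%, 5.16%, 5.91% and 2.03% of the larger gains. Sites called higher in POS lay in 49.7% of the larger gains, 31.6% of the deeper losses and 40% of all tested regions. The contrast was nearly the same where the 2 responses were not distinguished, with sites higher in NEG in 24.5% of those losses and 7.3% of those gains, and sites higher in POS in 34% and 51.5%. These shares are a description, and no test of them was made.

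The difference of responses was unevenly spread over chromosomes. Over 629 regions on chromosome 19 the median difference was 0.54, with 46.7% of regions called higher and 11.8% called lower. The medians on chromosomes 22, 17 and 16 were 0.40, 0.36 and 0.25. The lowest medians were on chromosome 8, at -0.28 over 1534 regions, and on chromosomes 4, 13 and 5, at -0.21, -0.19 and -0.18. All 8 of these medians kept their sign with total counts, with the scaling factors of each full table and with DESeq2, and that of chromosome 19 was 0.39 to 0.61 under these 3. At most of these chromosomes the day 14 median lay further from 0 than the 24 hour median, with chromosome 13 the exception (0.14 at 24 hours and -0.10 at day 14). On chromosome 19 the median response was -0.05 at 24 hours and 0.47 at day 14, on chromosome 22 it was 0.00 and 0.36, and on chromosome 8 it was -0.07 and -0.39. The median of D0 over DMSO was smaller in size than the median difference on all 8 of these chromosomes. It was 0.11 on chromosome 19, the highest of all chromosomes, and 0.08, 0.04 and 0.05 on chromosomes 22, 17 and 16. On chromosomes 8, 4, 13 and 5 it was -0.03, -0.09, 0.02 and -0.08. So it had the sign of the difference on each but chromosome 13. Of 276 chromosome 19 regions also present in both NEG tables, the median difference of responses was 0.75 in POS and 0.06 in NEG.

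**Figure D4:**
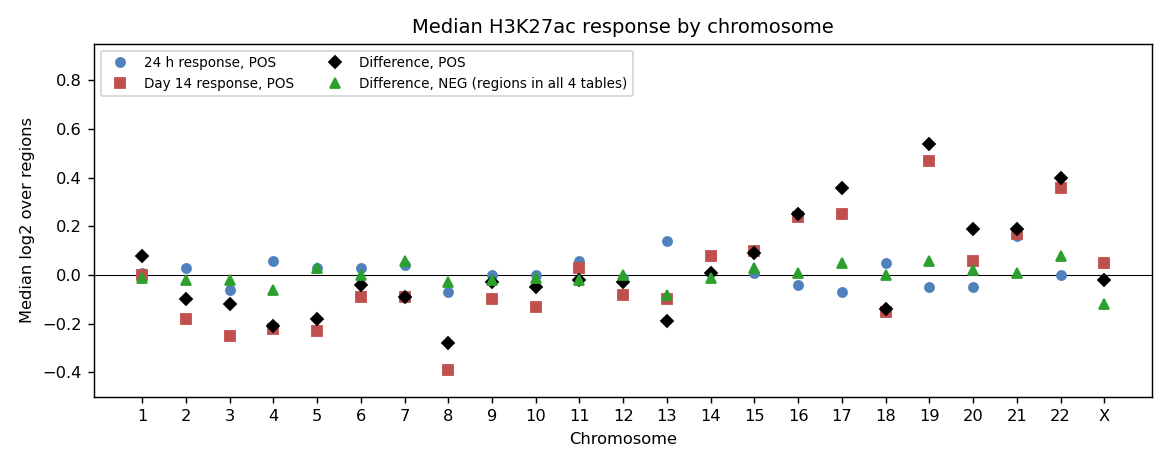
Median log2 response over the regions of each chromosome (x axis) in POS at 24 hours and at day 14, their difference, and the difference in NEG over the regions present in all 4 trametinib tables. The POS difference is highest on chromosome 19 (0.54) and lowest on chromosome 8 (-0.28), and the 24 hour medians lie between -0.07 and 0.16.

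Neighbouring regions tended to differ together. Among 2536 pairs of adjacent regions that were both called, with starts at most 15 kb apart, 2068 (81.5%) had the same direction. Runs of 2 or more called regions of the same direction, at the same spacing and with no other matched region between, numbered 1717 and held 3785 regions (22.5% of the calls). The longest run, at chr3:42066475-42112932, held 7 regions, all lower at day 14. Their CPM summed to 186, 174 and 183 in DMSO, 209, 188 and 228 in 24 hour trametinib, 156 and 156 at D0, and 70.2 and 71.3 at D14. The 24 hour libraries lie above DMSO there, and the D14 libraries far below D0. The next longest, 6 regions at chr20:36738100-36781536, had sums of 513, 422 and 443, then 315, 304 and 332, then 669 and 600, and last 176 and 181 CPM in the same order of groups. H3K27ac fell in both arms in that run, and D0 was above DMSO. Of the runs with a higher response at day 14, 5 regions at chr17:41462280-41497390 had sums of 311, 249 and 273 CPM in DMSO, 335, 304 and 355 in 24 hour trametinib, 307 and 253 at D0, and 687 and 710 at D14. These runs were picked by their length after the calls were known and carry no test of their own.

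NEG cells were treated in the same 2 ways, with 2 libraries a group, and 10373 of the regions occur in all 4 trametinib tables. Over these regions the difference of responses was called in 6579 in POS (63.4%) and in 2809 in NEG (27.1%), with a median absolute log2 difference of 0.68 and 0.36. The median SE was close, 0.21 in POS and 0.24 in NEG. The contrast between the subpopulations, POS minus NEG in the difference of responses, was called in 4850 regions (46.8%) by edgeR's quasi-likelihood test on all 18 libraries, and was 2-fold or more in 3307 (31.9%). In 3760 of the 4850 (77.5%) the POS difference was the larger in size. Where both subpopulations had a called difference, 1191 of 1818 regions (65.5%) shared its direction, and across all 10373 regions the 2 differences correlated with r of 0.18. That correlation is over regions, which are not independent replicates, and the POS and NEG values share no library.

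**Figure D5:**
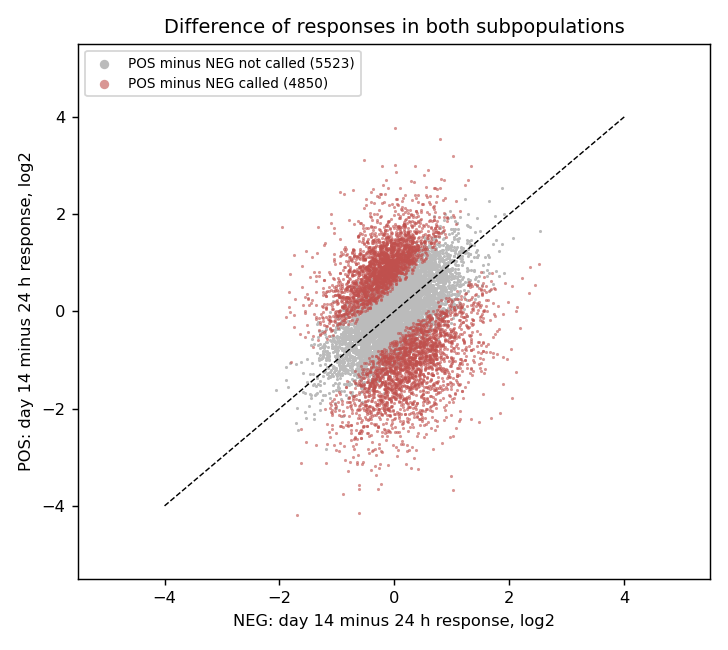
Difference of responses (day 14 minus 24 hours, log2) in NEG (x axis) and in POS (y axis) over 10373 regions; the dashed line marks equal values. Red points are the 4850 regions in which POS minus NEG was called, and the cloud spreads further along the POS axis (SD 0.97) than along the NEG axis (SD 0.57).

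The classes defined in POS could be followed in the NEG libraries, which had no part in defining them. Of the 3437 deeper losses of POS, 1654 were present in both NEG tables, and their median NEG response was -0.47 at 24 hours and -0.41 at day 14. They were thus also lower in NEG, without the deepening seen in POS. The 428 larger gains present in NEG had NEG medians of 0.55 and 0.51. They were 13.9% of the larger gains, whereas 48.1% of the deeper losses and 33.7% of all tested regions were present in the NEG tables. In the 369 regions where POS turned from gain to loss, the NEG medians were 0.38 and 0.04, and the NEG difference of responses was called lower in 33.1%, against 13.9% over all regions. That share was 33.8% in the 278 regions that gained in POS at 24 hours alone, and called NEG losses at day 14 were 22.8% of the 369 regions, against 25% over all. In the 421 regions where POS turned from loss to gain, the NEG medians were -0.02 and 0.09, and the NEG difference was called higher in 16.4%, against 13.2% over all. That share was 20.1% in the 407 regions that fell in POS at 24 hours alone. In the 1157 regions lost in POS at day 14 alone, NEG medians were 0.06 at 24 hours and -0.18 at day 14. The NEG difference was called lower in 25.2% of them, against 13.9% over all. In the 1037 regions gained in POS at day 14 alone, NEG medians were 0.18 at 24 hours and 0.24 at day 14. The NEG difference was called higher in 11.2% of these, against 13.2% over all, so the median NEG gain was mostly present at 24 hours.

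Single regions show how far the subpopulations could part. POS responses below come from the fit of 10 libraries and NEG responses from that of 18. The region chr8:129440247-129441248 had a POS response of -0.03 ± 0.14 at 24 hours and 3.54 ± 0.16 at day 14, and D14 held 243 and 244 CPM against 19.3 and 23.4 at D0. In NEG it rose by 1.40 ± 0.11 and 1.41 ± 0.14, a difference of 0.01 ± 0.18. At chr10:79497428-79498429 POS fell from 105 and 72.4 CPM at D0 to 2.55 and 2.70 at D14, with responses of -1.25 ± 0.11 and -5.09 ± 0.25. In NEG the loss there was smaller at day 14, -0.73 ± 0.16, than at 24 hours, -1.74 ± 0.14. At chr9:81182066-81183067 the POS responses were -0.45 ± 0.10 and -4.02 ± 0.26, and the NEG difference was 0.98 ± 0.22. The windows of both POS arms shared 656 bases there and 546 at chr8:129440247-129441248. At chr3:46014108-46015109 the POS level reached 58.2 and 57.8 CPM at D14 from 7.18 and 5.28 at D0, and the NEG difference was -0.72 ± 0.23. These 4 regions were chosen for their contrast between POS and NEG, so their values describe its extremes.

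The series also holds libraries labelled POSR1 and POSR2, which were pooled here as POSR, so differences between them are not shown. The labels do not say what sets POSR apart from POS or whether drug was present. The comparison of POSR with POS uses the same 3 DMSO libraries as the 24 hour response, so the values stand side by side with no test between them. Over 27896 matched regions, 5361 were higher in POSR than in DMSO (19.2%) and 5462 lower (19.6%). Among the deeper losses, 149 of 3346 were higher and 1462 lower in POSR, with a median log2 of -0.50. Among the larger gains, 843 of 2482 were higher and 124 lower, with a median of 0.42. Where the 2 responses were not distinguished, the pattern was similar. Of those losses, 250 of 3411 were higher and 1306 lower in POSR, with a median of -0.41. Of those gains, 837 of 2917 were higher and 180 lower, with a median of 0.31. Regions that turned from gain to loss had a POSR median of 0.03, and those that turned from loss to gain 0.40.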

How the data were processed

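H3K27ac chromatin immunoprecipitation libraries of 10 POS samples, with 8 NEG, 4 POSR and 4 JUNB libraries for comparison, were used. The authors deposited raw counts per region and library, which are not normalized, and 1 union of MACS2 regions per table, 1001 bases wide for H3K27ac and 201 for JUNB, per the file headers. Their deposited DESeq2 tables hold log2 fold changes and adjusted p-values. Per the submitters' processing notes, the tools were cutadapt 1.12, STAR 2.5.2b, DESeq2, featureCounts and MACS2 and the build hg19, with no settings recorded. Columns of the acute drug arm carry another drug code (GSK) and were taken as trametinib because their table is named so. Samples were grouped by title.

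Regions of the 24 hour and day 14 tables were paired 1 to 1 where they shared at least 50% of their length. The median shared length was 960 bases, so counts of a region come from shifted windows in each arm. Among the named regions the shared length was as low as 546 bases, at chr8:129440247-129441248. Counts of the 10 libraries were fitted together with edgeR 4.0.16 (limma 3.58.1, R 4.3.3) with 4 groups, edgeR's filter at a minimum count of 10 and TMM factors of 0.943 to 1.07. Quasi-likelihood tests were adjusted by Benjamini-Hochberg over all regions. The 18 libraries of 4 tables were fitted likewise for POS minus NEG. For POSR over POS DMSO, the POSR1 and POSR2 libraries were pooled as a group. A JUNB site was given to a region where 50% of it lay inside. Tables were made with python 3.11.15.

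Named regions were at or above the median level, lay at least 100 kb apart within a list and came first in 6 lists: largest differences, opposite responses, equal responses, 24 hours only, day 14 only, and POS minus NEG. Regions, lists and tests were chosen with earlier results of these data known. On simulated counts over 30743 regions for the difference of responses, 59 of 100 2-fold and 89 of 100 4-fold changes were recovered, and 9 unchanged regions were called. No other regions were changed there, whereas 54.6% were called in the data. The shares recovered therefore need not hold for the data. Replicate numbers were not taken to pair libraries. Alternatives were DESeq2 1.42.0, other scalings, filters, overlaps and thresholds, a replicate block and each library left out. Inputs and the untreated POS and NEG table were not used.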

Additional observations from a re-analysis of the deposited data

Results flagged for a closer look

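At 14 of the named regions the difference of responses itself differed between POS and NEG in the fit of 18 libraries (edgeR, adjusted p under the threshold). Of the 41 named regions, only those present in all 4 trametinib tables could be tested for this. Over all 10373 such regions, 46.8% were called. The named regions tested but not called were chr7:55614497-55615498, chr6:123489846-123490847 and chr3:32955663-32956664 (edgeR adjusted p = 0.079, 0.86 and 0.081). All other named regions that could be tested were called. The log2 values of POS minus NEG follow. At chr8:129440247-129441248 it was 3.75, at chr3:46014108-46015109 3.22, at chr10:79497428-79498429 -4.69 and at chr9:81182066-81183067 -4.38, and these 4 regions were chosen for that contrast. The other regions were chosen for their POS values. The POS difference is part of this contrast, so choosing regions with a large POS difference favours a large contrast. POS minus NEG was -2.50 at chr6:85607420-85608421, -3.54 at chr3:130935664-130936665 and -2.86 at chr5:15021325-15022326. It was -1.92 at chr13:36738120-36739121, -1.98 at chr15:48857998-48858999 and 2.76 at chr19:18475662-18476663, where the POS response changed sign. It was -2.90 at chr5:166199201-166200202 and -2.32 at chr3:191728911-191729912, where POS was called at day 14 alone. At chr1:17559652-17560653 it was -1.19 and at chr12:64574632-64575633 -0.57, where POS had equal losses at both times. In NEG the first of these fell by 1.05 ± 0.12 at 24 hours and rose by 0.31 ± 0.12 at day 14, and the second fell by 1.33 ± 0.11 and 0.58 ± 0.12. At chr3:191728911-191729912 NEG rose by 1.43 ± 0.14 at 24 hours and 0.66 ± 0.17 at day 14, while POS fell by 3.42 ± 0.19 at day 14.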

How the results depend on the processing

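The chief limits are 2 libraries a group in the chronic arm, dose and time that differ between the arms, and windows shifted between tables. Of the 41 named regions, 11 have no match at 80% overlap. The 35 with a called difference kept its direction and their side of the threshold under the other alternatives. At the 6 with equal responses the difference stayed uncalled, but its sign changed under at least 1 alternative in each, with values of -0.16 to 0.25. Leaving out the filter changed nothing, since every region passed it. The difference of responses was called in 14028 to 17039 regions when single libraries were left out, and in 14009 with DESeq2 (13902 of them also called in the same direction in the main fit). At the 2-fold minimum it was called in 9736. Counts that moved by over 1.5 times were these. With the scaling factors of each full table, losses followed by gains numbered 507. With DESeq2, D0 over DMSO had 2705 calls, responses smaller at day 14 367, gains followed by losses 659 and the NEG difference 1872. At an adjusted p of 0.01 these 4 were 2821, 303, 692 and 1730, losses followed by gains 416 and opposite responses 1108. With single libraries left out, D0 over DMSO ranged from 1818 to 6190 and responses smaller at day 14 from 341 to 685. Counting any overlap of a JUNB site, the share with a site was 83.5% of the day 14 gains and 91.8% of the day 14 losses. The share of called differences that were higher was 38.6% with the factors of each full table (median -0.17) and 52.3% with DESeq2 (median 0.05). The causes of these shifts were not tested, beyond the stricter threshold and the fewer libraries themselves. With the replicate number as a block, 17503 regions were called, 16769 of them as in the main fit. The deviations of same-numbered libraries correlated at 0.11, 0.29 and 0.00 in the 24 hour arm and 0.02 in the chronic arm. DMSO replicate 2 correlated best with trametinib replicate 2, and at -0.11 and -0.22 with trametinib replicates 1 and 3. DMSO replicate 1 correlated best with trametinib replicate 3 (0.23). These values do not settle whether the numbers pair libraries.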
